A study of Danio rerio with 4 samples.

Results

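Translation efficiency is the number of ribosome footprints on the mRNA of a gene relative to the amount of that mRNA. Here it was compared between heads of noc4l mutants and siblings, for the 14455 genes that reached 100 counts summed over siblings and mutants in RNA-seq and again in Ribo-seq, out of 25196 genes present in the tables of both assays. Every gene that met this count minimum is a member, and no gene was chosen by its ratio. Zebrafish heads were taken at 5 dpf (days post fertilization), and there was 1 library for each of 4 conditions, RNA-seq of siblings, RNA-seq of mutants, Ribo-seq of siblings and Ribo-seq of mutants. The fish were of the AB strain, and the mutants carry a CRISPR/Cas9 deletion of 5 bases in the fourth exon of noc4l. The siblings are labelled WT in GEO, and whether heterozygous fish were among them was not given in the sources used here. Heads for the 2 assays were collected separately, in TRIzol for RNA-seq and by flash-freezing for Ribo-seq. The number of heads in a library was also not stated. The same sources place noc4l transcript in embryos at the 1-cell stage, so mutants start with a maternal supply.

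Noc4l belongs to the nucleolar machinery of ribosome assembly, and in yeast its counterpart Noc4 is needed to make the small ribosomal subunit. In Ribo-seq, RNase removes all mRNA that is not covered by a ribosome, and the protected fragments, the footprints, are sequenced. Not all mRNAs compete equally for ribosomes: ribosomal protein mRNAs and those of several translation factors start with a run of pyrimidines, the TOP motif, through which the growth regulator mTORC1 and the RNA-binding protein Larp1 control their loading. Other mRNAs carry upstream reading frames, iron-responsive elements or frameshift sites that set how many ribosomes reach the coding sequence. A higher ratio of footprints to RNA can come from more footprints or from less RNA, and these are kept apart below.

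Counts were scaled in each assay by TMM, a method that places the typical gene at a ratio of 1 of mutant to sibling, and 0.5 counts were added to each. Because the libraries differ in size, a gene with a log2 ratio of 0 has 1.23 times the sibling counts in the mutant RNA-seq library and 2.67 times in the mutant Ribo-seq library. The RNA-seq libraries held 15018488 and 17395024 counts in siblings and mutants, and the Ribo-seq libraries 12181046 and 19823848 counts, of which 4 loci with almost no RNA-seq counts took 51.1% in siblings and 19% in mutants. With plain library totals, which include those loci, 0.63 would be added to every log2 ratio of translation efficiency and the median gene would stand at 0.62 in place of -0.01. All ratios are therefore relative to the other genes, a fall of translation in all genes alike would not show, and any gene printed with a log2 ratio between -0.63 and 0 stands above 0 with library totals. Totals that leave out the 4 loci would instead add -0.10 to every log2 ratio, so a ratio below 0 stays below 0. With the TPM and FPKM that the authors deposited, and 1 added, the median gene would stand at 0.86. List medians given below for library totals and for TPM and FPKM are to be read against 0.62 and 0.86, not against 0. Each condition has 1 library, so no test was made, and genes are counted as higher or lower where a ratio was 2-fold or more. Intervals are at 95%, were computed from Poisson error, and cover counting error only, not the spread between fish. In tissue, fewer cells of a type and less RNA per cell cannot be told apart. The protocol text in GEO is one for poly(A) RNA in all 4 samples, whereas the methods of the study describe cycloheximide, RNase and a sucrose gradient for Ribo-seq.

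The heads held RNA of other organs, and that share differed between the libraries. All 9 head markers, such as the neuronal elavl3 and the cartilage collagen col2a1a, were found in all 4 libraries. The 5 liver markers made up 0.732% of RNA counts in siblings and 0.241% in mutants, and 0.117% and 0.00494% of footprint counts outside the 4 loci, a log2 ratio of -1.6 in RNA and -4.56 in footprints. Of these markers fgb had more RNA counts in mutants, 4119 and 6158, and so had cdx1b of the intestine markers, 236 and 392. The summed share of the 6 muscle markers had opposite signs in the assays, 0.56 in RNA and -0.54 in footprints, although myhz2 was below the typical gene in both. The gene ID of myhz1.1 used as a marker was above it in both. With counts summed over its 2 IDs, myhz1.1 had 0.52 in RNA and -0.27 in footprints. The summed share of the 3 heart markers had 0.53 and -0.74. The 3 intestine markers had -2.95 and -1.97, and the 4 pancreas markers -4.19 and -5.11. Where liver, muscle, heart or gut genes are described, these shares moved with them, and their part in the ratios was not tested.

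Translation efficiency was higher in mutants for 513 of the 14455 genes (3.55%) and lower for 460 (3.18%). Counted in each assay whatever the other did, 253 genes were higher (1.75%) and 445 lower (3.08%) in footprints. In RNA, 368 were higher (2.55%) and 526 lower (3.64%). RNA and footprint ratios were related across genes, with Pearson's r of 0.56 and Spearman's rho of 0.32, a description over genes that share the same 4 libraries. The log2 ratio spread about as widely in translation efficiency, with an SD over genes of 0.56, as in RNA and in footprints, with an SD of 0.60 in each. A 2-fold ratio in RNA was often not met by one in footprints. Of the 368 genes higher in RNA, 105 were also higher in footprints, and of the 526 lower in RNA, 202 were also lower.

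Genes past the ratio of 2 in translation efficiency were placed by which assay had moved 2-fold. Footprints alone had moved for 65 of the higher genes (0.45% of all genes) and 103 of the lower genes (0.713%). RNA alone had moved, against the direction of the ratio, for 191 of the higher genes (1.32%) and 119 of the lower genes (0.823%). In 1 higher and 4 lower genes both assays had moved 2-fold in opposite directions, and in 17 higher and 66 lower genes both had moved the same way by unequal amounts. For 239 higher and 168 lower genes neither assay had moved 2-fold by itself. When the assay with the larger change named the class, RNA was larger for 329 of 513 higher genes (64.1%) and for 224 of 460 lower genes (48.7%). These shares depend on the scaling. With library totals, 2889 genes were higher, 1328 of them by footprints, and 120 lower, so that 96.0% of genes past the ratio were higher, against 52.7% with TMM and 39.3% with totals that left out the 4 loci.

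**Figure D1:**
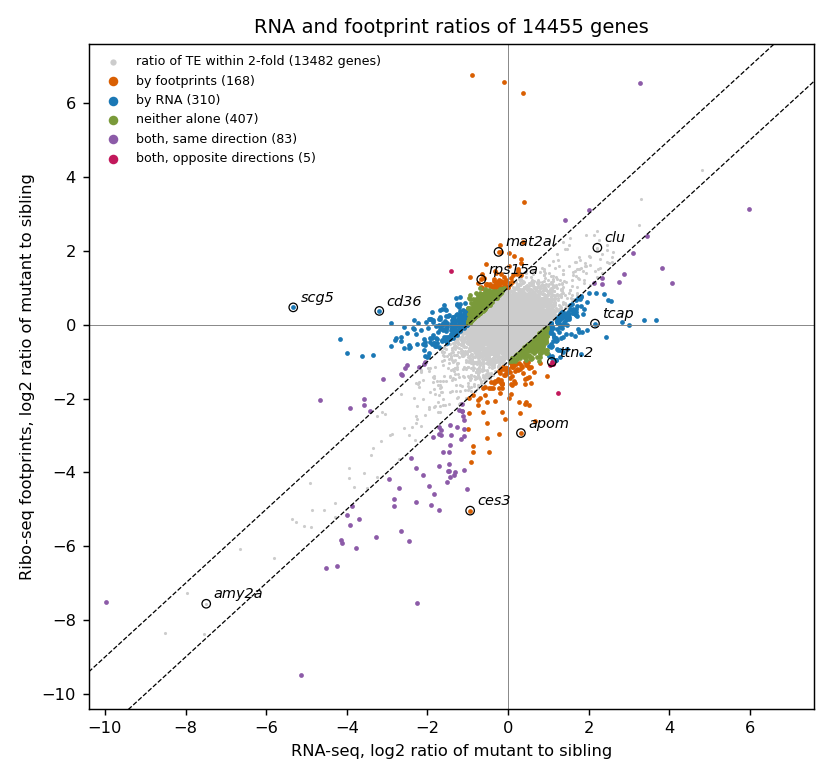
Each point is 1 of 14455 genes, with the log2 ratio of mutant to sibling in RNA-seq on the x axis and in Ribo-seq footprints on the y axis; the dashed lines mark a 2-fold ratio of translation efficiency, and colours give the class. The 65 and 103 genes by footprints lie above and below the lines at RNA ratios within 2-fold, and the 191 and 119 genes by RNA lie to the left and right at footprint ratios within 2-fold.

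The disrupted gene itself was within the ratio of 2 in this measure, but its interval reached past a 2-fold fall. noc4l had 443 RNA counts in siblings and 45 in mutants, and 93 and 15 footprint counts. Both assays were far lower in mutants, and the log2 ratio of translation efficiency was -0.43 (-1.32 to 0.46). Library totals reverse this sign, and totals without the 4 loci do not.

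Genes with higher translation efficiency by footprints included ribosomal proteins. Among the 62 different symbols of this class, 9 were small-subunit proteins and 3 large-subunit proteins, and 15 were in any of the 40 gene lists. The 2 ribosomal protein lists hold 34 and 45 of the 14455 measured genes. How many measured genes are in any list was not counted, so totals in any list have no share over all genes beside them. In the following, pairs of counts are given as sibling and mutant. rps15a, which encodes a small-subunit protein, had 5327 and 4121 RNA counts and 1054 and 6579 footprint counts. Its RNA was thus below the typical gene in mutants and its footprints above, with a log2 ratio of -0.66 in RNA, 1.23 in footprints and 1.89 (1.78 to 2.00) in translation efficiency. rps29, another small-subunit protein, had 2497 and 1915 RNA counts and 957 and 5199 footprint counts, a log2 ratio of 1.70 (1.57 to 1.83). rps28, rps27.1 and rps27a, also of the small subunit, followed with 1.63, 1.61 and 1.58.

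The 2 largest ratios among genes of this class with at least 1000 counts over the 4 libraries were not of ribosomal proteins. mat2al, related to the enzyme that makes S-adenosylmethionine, had 588 and 612 RNA counts and 58 and 611 footprint counts. Its footprints per RNA were 4.62-fold higher in mutants, a log2 ratio of 2.21 (1.79 to 2.63), while its RNA stayed at -0.24. tmem183a, a membrane protein, had 352 and 441 RNA counts and 27 and 283 footprint counts, a log2 ratio of 1.92 (1.32 to 2.52). her4.1, a target of Notch signalling in neural progenitors, was also in this class, with 55.8 and 366 footprint counts on 81.7 and 52.2 RNA counts and a log2 ratio of 2.22. Its counts are fractions, as where reads are shared with similar genes, and they sum to fewer than 1000. The 3 highest points in the plot of RNA against footprints are genes with clone names, fractional counts and 0 footprint counts in siblings, and no ratio is given for them.

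**Figure D2:**
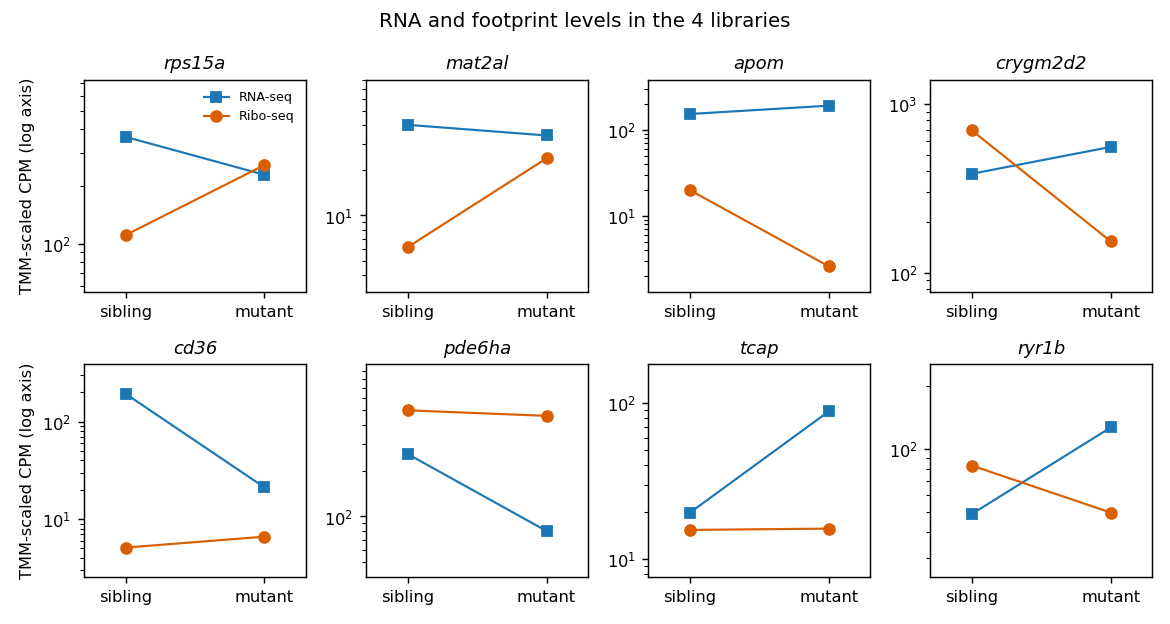
Scaled level (TMM-scaled CPM, counts scaled to library size, on a log axis) of 8 genes in the sibling and the mutant library of RNA-seq (squares) and Ribo-seq (circles), 1 library per point. The assay that moved 2-fold was higher footprints in mutants for rps15a and mat2al, lower footprints for apom and crygm2d2, lower RNA for cd36 and pde6ha, and higher RNA for tcap and ryr1b. The other assay moved by less than 2-fold but added to the ratio of some, with a log2 ratio of -0.66 in RNA for rps15a and -0.75 in footprints for ryr1b.

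Nearly the whole set of ribosomal protein mRNAs had more footprints per RNA in mutants. In the small subunit 30 of 34 measured genes were past the ratio of 2, and in the large subunit 39 of 45, all upward. Median log2 ratios were 1.33 and 1.26, respectively. Over all genes 3.55% were past the ratio of 2 upward and 3.18% downward, and the median was -0.01. Both assays contributed: over the 79 genes the median log2 ratio was 0.80 in footprints and -0.50 in RNA. For that reason only 12 of the 69 higher genes were placed by footprints and 2 by RNA, whereas 55 had neither assay past 2-fold. rpl32 of the large subunit shows this pattern. It had 8532 and 6445 RNA counts and 1490 and 7921 footprint counts, log2 ratios of -0.70 and 0.99 that sum to 1.69 (1.6 to 1.79) in translation efficiency.

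Per unit of length, ribosomal protein mRNAs were poorly covered in siblings and closer to the typical gene in mutants. From the deposited TPM and FPKM, which are corrected for length, the median ribosomal protein gene had 0.29 of the footprints per RNA of the median gene in siblings and 0.73 in mutants. These levels are relative to the median gene of the same genotype. They come from the same 4 libraries, so their change restates the ratio above and is not a separate observation.

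A few ribosomal proteins stood outside the block. rpsa and rps2, of the small subunit, had fewer footprints relative to RNA in mutants. rpsa had 28860 and 30369 RNA counts and 3202 and 3930 footprint counts, a log2 ratio of -0.90 (-0.97 to -0.83), and rps2 had 32645 and 31179 RNA counts and 2543 and 3300 footprint counts, a log2 ratio of -0.68 (-0.76 to -0.60). Both stay below 0 with library totals. Of the stalk proteins, which bind the factors of elongation, rplp0 had -0.05 (-0.12 to 0.02), rplp1 had 0.04 (-0.04 to 0.12) and rplp2 had -0.16 (-0.40 to 0.07), whereas rplp2l had 1.33 (1.22 to 1.44). rps12 and rpl5a had 0.36 and 0.41, and rpl5b, the second copy of the gene for the same protein of the large subunit, had 1.36. rps27l, a relative of rps27, had higher RNA, with 175 and 821 RNA counts and 114 and 1642 footprint counts, and its translation efficiency had a log2 ratio of 0.49 (0.13 to 0.85).

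Other mRNAs known to start with a TOP motif in mammals were split. Of 33 measured genes 7 were higher and 0 lower (median log2 ratio 0.39), and 10 were below 0. tpt1, the translationally controlled tumour protein, had the largest ratio of the 7, with 46886 and 32958 RNA counts and 1099 and 5293 footprint counts. Its footprints were higher on less RNA, and its log2 ratio was 1.65 (1.56 to 1.75). rack1, a scaffold protein on the small subunit, had 1.12 and ppiaa, a cyclophilin, had 1.16. The nascent chain complex genes btf3 and naca had 1.08 and 1.06, and eif3f, a subunit of the initiation factor that binds the small subunit, had 1.16. The other end of the list held RNA-binding proteins and a nucleolar chaperone. npm1a, nucleophosmin, had 3158 and 5751 RNA counts and 869 and 2610 footprint counts, a log2 ratio of -0.40 (-0.53 to -0.27), and pabpc1a, the poly(A)-binding protein, had -0.34, both above 0 with library totals. The mRNA starts themselves were not analysed here, so the list stands for the motif.

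Elongation and initiation factors differed less from the typical gene. None of 13 measured elongation factor genes and 2 of 62 initiation factor genes were past the ratio of 2, with medians of 0.44 and 0.15. The 2 were higher, as were 3.55% of all genes. eef1a1l1, the abundant factor that brings aminoacyl-tRNA to the ribosome, had 175207 and 144809 RNA counts and 21964 and 71195 footprint counts, a log2 ratio of 0.85 (0.83 to 0.87). The subunits of its exchange factor were close to it, with 0.96 for eef1b2 and 0.93 for eef1g. eef2b, the translocation factor, had 0.39 (0.35 to 0.42). Ribosomal proteins of the mitochondrion, which are made in the cytosol and imported, had a median of 0.08 over 73 genes with 0 past the ratio of 2, and totals without the 4 loci would put that median at -0.02.

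Genes translated inside mitochondria were all on the higher side. The 13 protein genes of the mitochondrial genome had log2 ratios from 0.45 to 1.19, and 5 of them were past the ratio of 2, with a median of 0.98. mt-atp6, a subunit of ATP synthase, had 73446 and 60484 RNA counts and 1094 and 4465 footprint counts, a log2 ratio of 1.19 (1.09 to 1.28). mt-cyb, cytochrome b, had 102818 and 113164 RNA counts and 3656 and 19012 footprint counts, a log2 ratio of 1.12 (1.07 to 1.17). mt-co1, the catalytic subunit of cytochrome oxidase, had the most footprints, 25850 and 134384, on 312162 and 484467 RNA counts. Both its RNA and its footprints were above the typical gene, by 0.34 and 0.96 on the log2 scale, and its ratio was 0.62 (0.60 to 0.64). The median over the 13 genes was 0.70 in footprints and -0.27 in RNA. The 82 nuclear genes of the respiratory chain had a median of 0.43, with 5 higher, 0 lower and 76 above 0, and here the median lay at 0.05 in footprints and -0.38 in RNA. ndufa4, a small subunit linked to cytochrome oxidase, had 3344 and 2512 RNA counts and 559 and 2035 footprint counts, a log2 ratio of 1.15 (1.00 to 1.31).

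**Figure D3:**
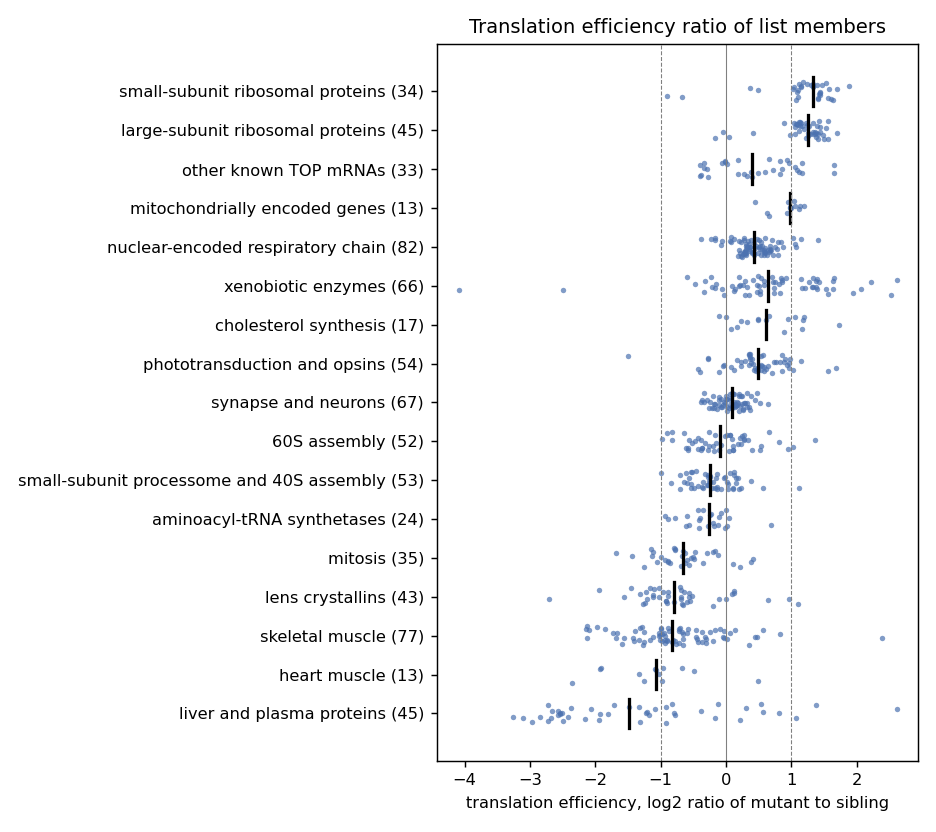
Log2 ratio of translation efficiency, mutant to sibling, of the measured members of 17 gene lists (number of genes in brackets), with 1 point per gene, the list median as a black bar and the 2-fold ratio as dashed lines. Ribosomal proteins lie right of the upper line except for 10 genes, and liver, muscle and crystallin genes lie mostly left of 0; with library totals every point would move right by 0.63.

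Genes with lower translation efficiency by footprints included many of liver, lens, muscle and dividing cells. Of the 100 different symbols in this class 42 were in any list, among them 11 of liver and plasma proteins, 10 crystallins, 9 of skeletal muscle and 5 of mitosis. These 4 lists hold 45, 43, 77 and 35 of the 14455 measured genes. apom, an apolipoprotein, had 2232 and 3416 RNA counts but 190 and 66 footprint counts. Its RNA was slightly above the typical gene and its footprints far below, and its log2 ratio was -3.25 (-3.66 to -2.84). The same held for fgb, the beta chain of fibrinogen, with 4119 and 6158 RNA counts and 269 and 136 footprint counts, a log2 ratio of -2.68 (-2.99 to -2.38). cfb and c5, of the complement system, had -2.57 and -2.72. ces3, a carboxylesterase, had the lowest value of the named genes, -4.09 (-4.95 to -3.24), with 874 and 558 RNA counts and 150 and 11.7 footprint counts, and hal, the enzyme that breaks down histidine, had -2.98. myhb, a myosin heavy chain, had a log2 ratio of -2.80 on 4826 and 977 footprint counts and 3887 and 2520 RNA counts.

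Over the whole list of liver and plasma proteins, 29 of 45 measured genes were lower and 3 higher, with a median log2 ratio of -1.49. Both assays were lower, with medians of -2.93 in footprints and -1.1 in RNA, and 17 of the 29 were 2-fold lower in both. Of 55 genes found, 45 met the count minimum. A gene nearly absent from mutants can meet it only through its sibling counts, so lower values in an assay are partly set by that minimum. With library totals the list median was -0.86, and with the deposited TPM and FPKM it was -0.30, where all genes have medians of 0.62 and 0.86. The marker shares of liver given above had the same order, -4.56 in footprints and -1.6 in RNA, and their part in these ratios was not tested. The highest values in the list went against its median. rbp4, which carries retinol, had 20497 and 13764 RNA counts and 4404 and 16673 footprint counts, a log2 ratio of 1.37 (1.32 to 1.43), and apoeb, an apolipoprotein that macrophages also make, had 0.81 (0.76 to 0.85). cyp2ad2, a cytochrome P450, had the largest, 2.61, with 1764 and 85 RNA counts and 218 and 140 footprint counts. Paired genes of the apolipoprotein of high-density lipoprotein differed, with -2.73 (-2.82 to -2.64) for apoa1b and 0.21 (-0.01 to 0.43) for apoa1a.

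Crystallins, the structural proteins of the lens, had lower footprints than RNA in mutants. Of 43 measured genes 15 were lower and 1 higher, with a list median of -0.80 on the log2 scale, and 10 of the 15 were placed by footprints. crygm2d2, a gamma crystallin, had the lowest ratio, with 5631 and 9959 RNA counts and 6624 and 3885 footprint counts. Its RNA was above the typical gene and its footprints below, a log2 ratio of -2.71 (-2.79 to -2.64). The median of the list was -1.15 in footprints and -0.15 in RNA. The beta crystallin crybb1l2 had 8010 and 6803 RNA counts and 11378 and 7153 footprint counts, a log2 ratio of -1.56. Some members were on the other side, and crygm2c had 38 and 190 RNA counts and 26.8 and 631 footprint counts, a log2 ratio of 1.1 (0.36 to 1.85). The crygm2d genes are similar copies whose counts are often fractions, so that values of single members are uncertain. The list median would be -0.17 with library totals and 0.20 with the deposited TPM and FPKM, both still below the medians of all genes, 0.62 and 0.86.

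Genes of mitosis had RNA near the typical gene and fewer footprints. Of 35 measured genes 7 were lower and 0 higher, with a median of -0.67. It becomes -0.03 with library totals and 0.23 with the deposited TPM and FPKM, both still below the medians of all genes, 0.62 and 0.86. The median was -0.86 in footprints and -0.08 in RNA. kif20a, a kinesin of cytokinesis, had 204 and 265 RNA counts and 151 and 132 footprint counts, a log2 ratio of -1.69 (-2.11 to -1.26). cenpe, a kinesin of the kinetochore, had 584 and 839 RNA counts and 251 and 290 footprint counts, a log2 ratio of -1.44 (-1.72 to -1.15). kif23, anln and cenpf were also placed by footprints, with -1.25, -1.14 and -1.12, and the mitotic kinases plk1 and aurka had -1.13 and -1.06. Genes of DNA replication were below the typical gene in both assays, with medians of -0.71 in footprints and -0.48 in RNA, and only 1 of 43 was past the ratio of 2 in translation efficiency, where the list had a median of -0.16, above 0 with library totals.

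Skeletal and heart muscle genes were lower in translation efficiency from both sides. In skeletal muscle 26 of 77 measured genes were lower and 1 higher (median log2 ratio -0.83), and in heart muscle 8 of 13 were lower and 0 higher (median -1.07, or -0.43 with library totals and -0.07 with the deposited TPM and FPKM). In the skeletal list RNA had a median of 0.36 and footprints of -0.45, and 9 of the 26 were placed by footprints, 9 by RNA and 7 by neither alone. The skeletal median would be -0.20 with library totals and 0.21 with the deposited TPM and FPKM. Under these scalings the medians of all genes are 0.62 and 0.86, above those of both muscle lists. ttn.2, a titin gene, had 9841 and 25606 RNA counts and 9881 and 13102 footprint counts. It was 1 of 4 lower genes with both assays past 2-fold in opposite directions, with 1.09 in RNA, -1.01 in footprints and -2.09 (-2.14 to -2.04) in translation efficiency. Its neighbour in the genome, ttn.1, had nearly the same values, 1.08 in RNA, -0.89 in footprints and -1.97 in translation efficiency. It was placed by RNA only because its footprints fell short of 2-fold. The share of muscle markers had log2 ratios of 0.56 in RNA and -0.54 in footprints, and its part was not tested.

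Among muscle genes placed by RNA were proteins of the sarcomere's ends and of calcium release. tcap, which caps titin at the Z disc, had 289 and 1582 RNA counts and 146 and 398 footprint counts. Its RNA was 4.46-fold higher relative to the typical gene and its footprints were at 0.03 on the log2 scale, a log2 ratio of -2.13 (-2.46 to -1.80). ryr1b, the calcium release channel, had 711 and 2260 RNA counts and 789 and 1255 footprint counts, a log2 ratio of -2.12 (-2.30 to -1.94). obscnb, obscurin, had -2.16 (-2.40 to -1.91), and flncb, a filamin of the Z disc, had -1.96. Footprints of ryr1b, obscnb and flncb were below the typical gene by less than 2-fold, at -0.75, -0.88 and -0.21. Muscle genes placed by footprints included myosin-binding protein and troponin genes. mybpc2b had 1077 and 1951 RNA counts and 668 and 594 footprint counts, a log2 ratio of -2.15 (-2.34 to -1.96), and tnnt3a had -1.68. In the heart list, tnnc1a had 63 and 152 RNA counts and 65 and 66 footprint counts, a log2 ratio of -2.36 (-3.01 to -1.72), and myh6, the atrial myosin, had -1.92 and was placed by RNA. Members on the other side of 0 included a glycolytic enzyme and a parvalbumin. pvalb2, a calcium buffer of fast muscle, had 0.02 and eno3, an enolase, had 0.36. The 1 higher muscle gene, myhc4, belongs to a cluster of similar myosin genes, and its 254 and 44 RNA counts against 185 and 369 footprint counts are uncertain for that reason.

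**Figure D4:**
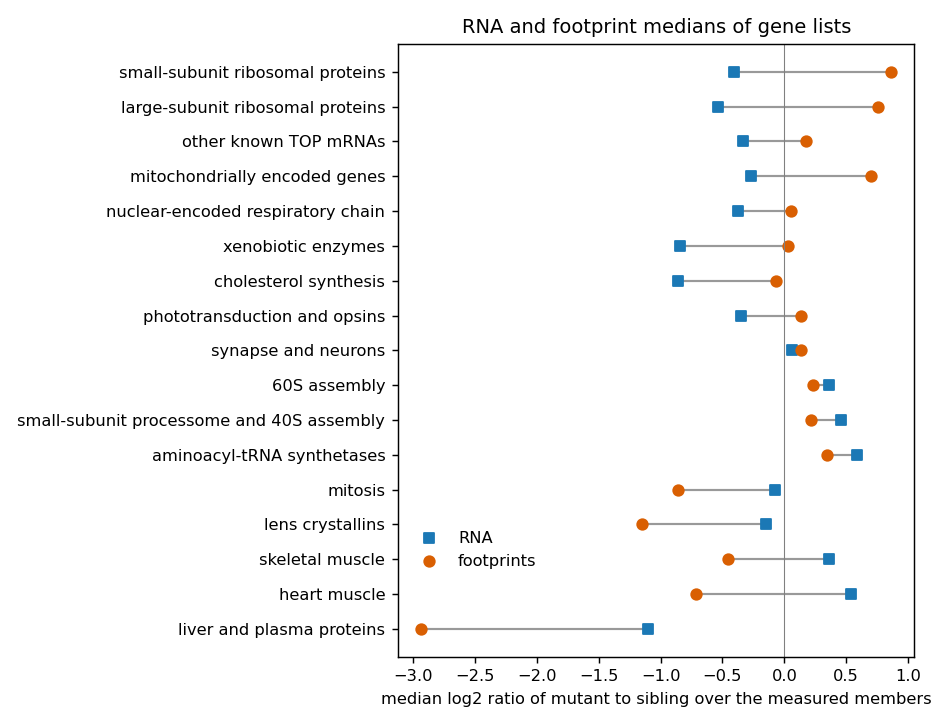
Median log2 ratio of mutant to sibling of the measured members of 17 gene lists, in RNA (squares) and in footprints (circles). Ribosomal proteins have footprints above 0 and RNA below it, xenobiotic and cholesterol genes have footprints near 0 and RNA below it, mitosis and crystallin genes have RNA near 0 and footprints below it, and muscle lists have RNA above 0 and footprints below it; library totals would move footprints right by 0.71 and RNA by 0.08.

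Genes with higher translation efficiency by RNA included many metabolic genes. Of the 188 different symbols in this class 40 were in any list, among them 17 enzymes of drug and xenobiotic metabolism, 5 genes of fatty acid handling and 4 of cholesterol synthesis. These 3 lists hold 66, 55 and 17 of the 14455 measured genes. cd36, a fatty acid transporter, had 2825 and 378 RNA counts and 48 and 167 footprint counts. Its RNA was far lower in mutants and its footprints were not, with 0.37 (-0.09 to 0.83) in footprints, and the log2 ratio of translation efficiency was 3.57 (3.08 to 4.05). aoc1, a diamine oxidase, had 2341 and 180 RNA counts and 52 and 82 footprint counts, a log2 ratio of 3.23 (2.68 to 3.77). capn2l, a calpain, had 327 and 39 RNA counts and 406 and 612 footprint counts, a log2 ratio of 2.52 (2.01 to 3.03), ctsl.1, a cathepsin of lysosomes, had 2.31, and ogal had 2.33. ces2b, a carboxylesterase, is carried by 2 gene IDs that had 2.95 and 2.53, and by the sum of their counts it had 2.59 (2.41 to 2.77). The log2 ratio of the intestine marker share was -2.95 in RNA and -1.97 in footprints, and its part in these ratios was not tested.

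scg5, a chaperone of neuroendocrine cells, had the largest ratio of this class, and it rests on how reads were divided. One of its 2 gene IDs had 245 and 6.99 RNA counts and a log2 ratio of 5.80, whereas the other had 642 and 974 RNA counts and 0.16. Both IDs held the same footprint counts, 392 and 1448.5. With counts summed over the IDs, the ratio was 0.62 (0.44 to 0.79). In all, 89 symbols were carried by several measured IDs. Of their 180 IDs 10 were higher and 8 lower, and with summed counts 2 symbols were higher and 2 lower.

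The median of the measured xenobiotic enzymes was lower in RNA and near the typical gene in footprints. Of 126 genes found, 66 met the count minimum, and 22 of these were higher and 2 lower (median log2 ratio 0.65). Their medians were 0.03 in footprints and -0.85 in RNA. In footprints 10 were 2-fold lower and 1 higher, and in RNA 29 were lower and 1 higher. A gene low in mutants can meet the minimum through its sibling counts alone, so these lower values are partly set by it. cyp3a65, a cytochrome P450 of gut and liver, had 8180 and 837 RNA counts and 262 and 173 footprint counts, both below the typical gene but RNA by more, and its log2 ratio was 1.57. mgst3b, a glutathione transferase of membranes, had 5180 and 1968 RNA counts and 919 and 2373 footprint counts, a log2 ratio of 1.64. ephx5, an epoxide hydrolase, had 2.22 and cyp2p7 had 2.06. ces2a, in the same family as ces2b, had 7561 and 3355 RNA counts and 432 and 73 footprint counts and went the other way, with -2.50.

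Cholesterol synthesis showed the same pattern with fewer counts. Of 26 genes found, 17 met the count minimum, with the same limit, and 5 of these were higher and 0 lower. The median log2 ratio was 0.61, with -0.07 in footprints and -0.86 in RNA. dhcr7, the last enzyme of the pathway, had 373 and 171 RNA counts and 141 and 319 footprint counts, a log2 ratio of 1.18 (0.79 to 1.56), and msmo1, a sterol oxidase, had 1.2. Of 70 genes of fatty acid and lipid handling found, 55 met the minimum, and 10 of these were higher and 2 lower (median 0.31). fads2, a desaturase, had 525 and 93 RNA counts and 111 and 233 footprint counts, a log2 ratio of 2.44 (1.98 to 2.89), and fabp2, a carrier of fatty acids in the gut, had 16932 and 1382 RNA counts and 333 and 185 footprint counts, a log2 ratio of 1.65 (1.38 to 1.92). fabp10a, a related carrier in liver, was nearly absent from both mutant libraries, with 5052 and 33 RNA counts and 926 and 7 footprint counts. Its log2 ratio of -0.83 rests on these few mutant counts and is too imprecise to place it.

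In photoreceptors, several genes of cones had lower RNA, with footprints nearer to the typical gene. Of 54 measured genes of phototransduction 4 were higher and 1 lower, with 46 above 0 and a median log2 ratio of 0.49. The median was 0.14 in footprints and -0.35 in RNA. In footprints 5 genes were 2-fold higher and 1 lower, and in RNA 1 was higher and 4 lower. Not all cone genes had lower RNA. The head marker opn1mw1, a green opsin, was above the typical gene in both assays, with 6419 and 10011 RNA counts and 2096 and 12617 footprint counts. pde6ha, a subunit of the cone phosphodiesterase, had 3749 and 1436 RNA counts and 4727 and 11602 footprint counts, a log2 ratio of 1.56 (1.46 to 1.66). The cone arrestins arr3a and arr3b, which shut off opsins, had 1.03 and 1.14, and guca1a, an activator of guanylate cyclase, had 1.69. The lower gene was opn1mw2, a green opsin, with 59 and 535 RNA counts and 50 and 346 footprint counts, a log2 ratio of -1.50 (-2.08 to -0.93). The green opsins lie in an array of similar genes, so that the values of opn1mw1 and opn1mw2 are uncertain.

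Clock genes fell on both sides. Of 37 measured genes of the circadian clock 3 were higher and 3 lower (median log2 ratio 0.03). cry5, of the cryptochrome and photolyase family, had 527 and 200 RNA counts and 412 and 1276 footprint counts, a log2 ratio of 1.90 (1.62 to 2.19). tefa, a bZIP factor with daily rhythm, had 4275 and 2741 RNA counts and 2689 and 9802 footprint counts, a log2 ratio of 1.39 (1.29 to 1.48), and cry1b had 1.09. The opposite side was held by nuclear receptors and the repressor nfil3-5. nr1d4a and nr1d4b had -1.18 and -1.02, and nfil3-5 had 1102 and 2622 RNA counts and 260 and 671 footprint counts, a log2 ratio of -1.01. RNA and footprints of these genes came from separate collections of heads, and the hour of collection was not stated.

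Outside muscle, genes with lower translation efficiency by RNA included a galectin, a caspase and stress-induced genes. lgals1l1, the galectin, a sugar-binding protein, had 103 and 894 RNA counts and 411 and 1155 footprint counts, RNA being higher in mutants with footprints at 0.08, and its log2 ratio was -2.74 (-3.08 to -2.41). casp3b, an executioner caspase, had 222 and 671 RNA counts and 107 and 179 footprint counts, a log2 ratio of -1.98 (-2.38 to -1.57). sesn2 and phlda3, induced by cell stress in mammals, had higher RNA and log2 ratios of -1.08 and -1.02 in translation efficiency. mdm4, a relative of the ubiquitin ligase mdm2, was lower by footprints, with 658 and 641 RNA counts and 100 and 93 footprint counts, a log2 ratio of -1.19 (-1.62 to -0.75). These are not typical of their kind. In a list of targets and regulators of the transcription factor p53, which holds casp3b, 38 genes were measured. Of them 4 were lower, 34 within 2-fold and 0 higher. The list median was -0.12, above 0 with library totals, and 14 members were above 0.

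Some genes moved in both assays. cp, ceruloplasmin, a copper protein of plasma, had 1031 and 3002 RNA counts but 383 and 282 footprint counts, log2 ratios of 1.25 and -1.86 that give -3.10 (-3.35 to -2.86). tgm2a, a transglutaminase, had 337 and 854 RNA counts and 67 and 84 footprint counts, a log2 ratio of -2.14 (-2.63 to -1.64). Other genes had like ratios in both assays. Among genes past 2-fold in both assays, translation efficiency stayed within a ratio of 1.2 for 22 that were higher and 27 that were lower. clu, clusterin, a secreted chaperone, had 723 and 4120 RNA counts and 334 and 3783 footprint counts, 4.65-fold and 4.24-fold higher, with -0.13 (-0.33 to 0.07) in translation efficiency. admb, adrenomedullin, had -0.19, npvf, a hypothalamic neuropeptide, had -0.26, and slc16a9a, a transporter, had -0.20. At the lower end, the pancreatic enzymes prss59.1, a trypsin-like protease, cpb1, a carboxypeptidase, and amy2a, amylase, were nearly absent from both mutant libraries. amy2a had 1682 and 11 RNA counts and 317 and 4 footprint counts, with -0.07 (-1.65 to 1.51) in translation efficiency, an interval too wide to place it. Of 28 genes of the exocrine pancreas found, 14 met the count minimum. A gene nearly absent from mutants can meet it only through its sibling counts, so being lower in mutants is partly set by that minimum. All 14 were lower in both assays, with medians of -4.42 in RNA and -5.38 in footprints. In translation efficiency 1 was higher and 4 lower. The median was -0.48, or 0.15 with library totals and 1.35 with the deposited TPM and FPKM, where all genes have 0.62 and 0.86. Intestine genes were lower in both assays, with medians of -2.39 and -2.09 over the 16 of 30 found genes that met the same minimum. Of these, 6 were higher and 3 lower in translation efficiency, with a median of 0.45. In larval globins, the oxygen carriers of red cells, 7 of 13 genes met the minimum. Their medians were -2.20 in RNA and -1.47 in footprints, and 1 was higher in translation efficiency, with a median of 0.62.

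Genes that build ribosomes did not follow the ribosomal proteins. Of 53 measured genes of the small-subunit processome, the complex in which Noc4l works, 1 was higher and 0 lower (median log2 ratio -0.24), and of 52 genes of large-subunit assembly 2 were higher and 0 lower (median -0.09); both medians lie above 0 with library totals. RNA was above the typical gene for both lists, with medians of 0.46 and 0.36, and footprints less so, with 0.21 and 0.23. The 3 genes past the ratio were pno1, which had 1713 and 1529 RNA counts and 218 and 920 footprint counts and a log2 ratio of 1.12, rsl24d1 with 1.36, and nsa2 with 1.03. Unlike most of these lists, all 3 had RNA below the typical gene. Of 24 aminoacyl-tRNA synthetases, which charge tRNAs, 21 were below 0, with 0 past the ratio, and the list had a median of -0.26 (RNA 0.59, footprints 0.34) that also lies above 0 with library totals.

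Lists of mRNAs with known translational control gave values within 2-fold for most members, as did 13482 of all 14455 genes. Of 13 transcripts in a stress response list made for upstream reading frames none was past the ratio of 2. The median was -0.27, or 0.36 with library totals. The reading frames themselves were not analysed here. The list also holds asns, trib3 and slc7a11, the last with its highest value, 0.94. atf4a, the transcription factor of the integrated stress response, had 2624 and 4458 RNA counts and 190 and 392 footprint counts, a log2 ratio of -0.84 (-1.10 to -0.58), and ddit3, the factor CHOP, had -0.06 (-0.42 to 0.30). Of 14 iron-responsive transcripts 2 were higher and 0 lower. fth1a, ferritin heavy chain, had 10918 and 9300 RNA counts and 669 and 2742 footprint counts, a log2 ratio of 1.14 (1.02 to 1.27), and slc40a1, the iron exporter ferroportin, had 1.36 (1.02 to 1.70). Both carry an iron-responsive element ahead of the coding sequence in mammals. tfr1a and tfr1b, transferrin receptors, whose mRNAs have such elements behind the coding sequence in mammals, had -0.14 and 0.16. Of 13 polyamine genes, 1 was higher, oaz2b, a frameshift-dependent antizyme, with 1.22, and of 23 selenoproteins 1 was higher, selenow2b, with 1.09. Among all measured genes, 3.55% were higher.

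Neuronal genes stayed close to the typical gene. None of 67 measured genes of synapses and neurons was past the ratio of 2, and all lay between -0.38 and 0.65, with a median of 0.09. Among all measured genes, 3.55% were higher and 3.18% lower. Proteasome genes (44, median 0.11), chaperones (38, median 0.05) and genes of cartilage and bone matrix (33, median 0.03) had 0 genes past the ratio. The last of these lists was higher in both assays alike, with medians of 0.42 in RNA and 0.47 in footprints. None of 26 genes of cytokines and immune cells, 12 histones and 17 subunits and factors of RNA polymerase I was past the ratio, with medians of -0.18, -0.13 and 0.27, the first pair above 0 with library totals. Of 43 collagens 1 was lower, and of 21 genes of myelin and glia 1 was higher, her4.1. Skin genes held members on both sides, 3 higher and 3 lower of 37, among them cyt1l and krt17, keratins of the larval skin, with 1.49 (1.42 to 1.56) and 1.33 (1.24 to 1.42). cyt1l had 22728 and 16088 RNA counts and 2467 and 10664 footprint counts, with RNA below and footprints above the typical gene, the pattern seen in ribosomal proteins. krt93 was at the other end, with 177 and 34 RNA counts and 98 and 5 footprint counts, a log2 ratio of -2.93.

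The pathway annotation deposited with the files was used as well. Of 220 KEGG pathways with at least 15 measured genes, Ribosome had the highest median log2 ratio of translation efficiency, 1.09 over 129 genes, with 73 higher and 0 lower. Of those 73 genes, 14 were placed by footprints and 2 by RNA. Drug metabolism by cytochrome P450 came second, with a median of 0.80 over 36 genes, and its 12 higher genes were 10 by RNA and 2 with both assays lower. Dilated cardiomyopathy was at the low end, with -0.71 over 25 genes and 7 lower, followed by hypertrophic cardiomyopathy (-0.69) and by complement and coagulation cascades (-0.67, with 10 of 21 genes lower, 6 of them by footprints). The PPAR signaling pathway, which governs fatty acid genes, was number 21 from the highest, with a median of 0.32 over 70 genes. Its medians were -0.10 in footprints and -0.26 in RNA. Of the 70 genes 11 were higher and 3 lower, against 3.55% and 3.18% of all genes. The 11 divided into 1 by footprints, 5 by RNA, 2 with both assays lower and 3 with neither assay past 2-fold. The 3 lower genes were each in a different class.

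Translation efficiency also differed with gene length. The length of a gene was implied by its deposited TPM and footprint count, and the 14455 genes were divided into 5 classes of 2891. The median log2 ratio was 0.15 in the shortest class, 0.04 in the next, -0.00 in the middle, -0.05 in the fourth and -0.16 in the longest. Short genes were thus above and long genes below the median gene, and both assays took part, with medians from 0.09 to -0.06 in footprints and from -0.07 to 0.09 in RNA. In the shortest class 7.23% of genes were higher and 3.08% lower, and in the longest class 0.761% were higher and 3.98% lower. Without ribosomal proteins the shortest class had a median of 0.14. Among genes with at least 1000 footprint counts the medians were 0.21 in the shortest and -0.14 in the longest class. The quartiles overlapped in all classes, and the rank correlation of length with the ratio across genes was -0.23. In the skeletal muscle list 17 of the 38 longer genes and 9 of the 39 shorter genes were lower, with medians of -0.99 and -0.73.

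**Figure D5:**
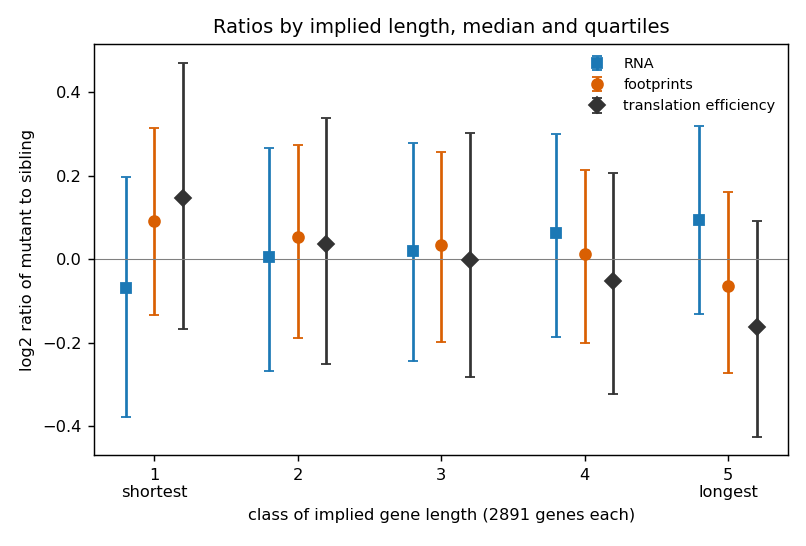
Median log2 ratio of mutant to sibling in 5 classes of implied gene length (2891 genes each), for RNA (squares), footprints (circles) and translation efficiency (diamonds); bars span the lower to the upper quartile over genes. The median of translation efficiency goes from 0.15 in the shortest to -0.16 in the longest class, as footprints go down and RNA goes up; library totals would add 0.63 to every class in translation efficiency.

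Genes named as a and b pairs, many of them copies kept from the genome duplication of fish, were compared. In 1792 pairs with both members measured, 3 pairs were both higher, 9 both lower and 3 opposite, and 62 had 1 higher and 76 had 1 lower member beside one within 2-fold. In 1639 pairs neither member was past the ratio. Of the pair members 1.98% were higher and 2.71% lower, against 3.55% and 3.18% of all genes. The shared-direction pairs were mostly muscle genes when lower, such as ryr1a and ryr1b with -1.65 and -2.12, xirp2a and xirp2b with -1.48 and -1.28, and flnca and flncb with -1.92 and -1.96. The filamins reached nearly the same ratio by different assays, with -1.43 in footprints and 0.48 in RNA for flnca, and -0.21 and 1.75 for flncb. The 3 pairs higher were arr3a and arr3b, the calcium-binding proteins cabp5a and cabp5b, and rps8a and rps8b. The opposite pairs were metabolic, ces2a and ces2b, grhpra and grhprb with 1.39 and -1.97, and rbp2a and rbp2b with 2.26 and -1.04. grhpr encodes glyoxylate reductase, and rbp2 a retinol-binding protein of the intestine. Pair members were chosen here by their values and are descriptions.

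The ratio of 2 is a limit of size, and genes lie on both sides of it without a gap. lrit1b, a retinal membrane protein, with 690 and 565 RNA counts and 350 and 1250 footprint counts, was the last higher gene inside it, and adprh, with 278 and 244 RNA counts and 123 and 471 footprint counts, the first outside, both at 1.0. On the lower side these were dcun1d2a and tbl3, both at -1.0. Precision depends on the footprint counts. Genes with 100 to 299 footprint counts had a median half-interval of 0.59 on the log2 scale and an SD of 0.69 over genes, and 4.88% of them were higher and 5.43% lower. Genes with 3000 or more had a half-interval of 0.12 and an SD of 0.55, with 7.58% higher and 2.45% lower. Reads shared between similar genes are a further limit, and 26.9% of all genes had a fractional count in some library, against 26 of the 65 higher genes by footprints and 53 of the 191 by RNA, and 39 of the 103 and 39 of the 119 lower genes.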

How the data were processed

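RNA-seq and Ribo-seq of heads of siblings and noc4l mutants gave 1 library for each of 4 conditions, in a table per assay. The estimated counts per gene were deposited by the authors as fractions in part, where reads fit several genes. Totals were 15018488 and 17395024 for RNA-seq (sibling, mutant) and 12181046 and 19823848 for Ribo-seq. The authors also deposited FPKM for RNA-seq and TPM for Ribo-seq, both corrected for gene length. HISAT2 and featureCounts are named in the submitters' processing notes; versions and the genome build were not given in the sources used here. Columns with the authors' fold changes, P values and FDR were not used. A Ribo-seq row without gene ID (0.00303% of sibling and 0.000746% of mutant counts) was left out.

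Tables were joined by gene ID. TMM factors (edgeR 4.0.16 in R 4.3.3, on rounded counts) were 0.972 and 1.03 for RNA-seq and 0.781 and 1.28 for Ribo-seq. With 0.5 counts added, translation efficiency was scaled footprints over scaled RNA, and its ratio was mutant over sibling, for genes with 100 counts per assay. A ratio of 2 was the rule of size in each measure. Classes name which assay passed it, footprints in the direction of the translation efficiency ratio or RNA against it. The other classes are both assays in opposite directions, both in the same direction, and neither. With 1 library a condition no test was made. Named genes were the 8 with the largest ratio per class among those with a symbol and 1000 counts over the 4 libraries, and list members with the most counts or extreme ratios; others were chosen after their values were seen. Members, lists and rules were chosen with earlier results of these data known. Scripts (Python 3.11.15, numpy 2.4.6, pandas 2.3.3, matplotlib 3.10.9) were tested on simulated data. Alternatives were other scalings, count minimums, added counts, ratios and class rules, and the deposited TPM and FPKM. A few genes are not reported here.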

Additional observations from a re-analysis of the deposited data

How the results depend on the processing

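No paired analysis was possible because each condition has 1 library, and for the same reason no library could be left out. Counts are higher and lower genes, 513 and 460 as reported. With library totals they were 2889 and 120 (1328 higher by footprints, 25 lower by footprints and 39 lower by RNA), and these held all 513 higher genes and 120 of the 460 lower genes. With totals without the 4 loci 39.3% of genes past the ratio were higher, against 52.7% as reported. With the deposited TPM and FPKM and 1 added they were 5255 and 37 (3696 higher by footprints, 8 lower by footprints, 14 lower by RNA). The median of all genes was then 0.86, and 3 named genes changed sign, atp2a2a to 0.035, cel.1 to 0.64 and prss59.2 to 0.14. With a minimum of 10 counts they were 1482 and 1428 (378 and 510 higher, 414 and 386 lower, by footprints and by RNA), and the median of larval globins minus that of all genes became -0.00195. With a minimum of 1000 counts they were 146 and 70 (15 and 34, 25 and 15), 67.6% of them higher, and mitochondrial ribosomal proteins and intestine genes had no member. With 1 count in each library they were 1500 and 1661 (308 and 609, 553 and 425). With 5 counts added 41 genes were higher by footprints. At a ratio of 1.5 they were 1549 and 1582, and at 3 they were 95 and 126. With the larger assay naming the class, 184 higher genes were by footprints and 329 by RNA, and 236 and 224 lower genes. Of the alternative values 268 list medians stayed and 9 moved, each taken minus the median of all genes. Scalings of counts other than TMM, such as library totals, add the same amount to every gene. Under them these differences could not change, although the list medians themselves did. For named genes 1716 values stayed inside the counting interval of the gene and 684 moved out of it. Library totals add 0.63 to the value of every gene, and with the deposited TPM and FPKM the median gene stood at 0.86. How many of the 684 came from each alternative is not given here. mRNA starts and protein lengths were not run. Implied length, length without ribosomal proteins and with 1000 footprint counts, and the TOP list in place of starts were chosen after seeing the data.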
